A study of Mus musculus with 12 samples.

Results

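Exons that mature mRNA of refed wild type liver mostly leaves out were followed into 3 other groups of mouse liver: fasted wild type, fasted *Lpin1*-/-, and refed *Lpin1*-/-. They were selected on inclusion in refed *Lpin1*+/+ liver alone. An event is 1 exon with its upstream and downstream neighbour exons, and an event was a member if the exon was 28 to 300 bases long, if inclusion averaged below 0.1 over the 3 refed wild type libraries, and if inclusion and skipping counts summed to at least 10 in each of the 12 libraries. Of 28447 events with enough counts that had equal coordinates in the fasted and the refed table, 6613 (23.2%) were members. They stood for 6516 distinct exons in 3359 genes, and 1816 of the genes had 1 member. The filter on counts sums both forms and sets no minimum on inclusion. An exon outside the annotation can be listed only where reads of it were seen, however, so such members may have come into the tables through a group that includes them.

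The study compared livers of mice on the BALB/cByJ background, with 3 libraries in each group. Mice were either *Lpin1*+/+ (wild type) or *Lpin1*-/- (the fld line, which lacks lipin 1 in every tissue, so that effects of the liver and of the rest of the body cannot be told apart), and were adult males of mixed ages. Fasted mice had no food for 16 h while housed alone, and refed mice had the same fast followed by 5 h with food, so feeding and time of day changed together. The comparison asks whether lipin 1 and feeding state affect which exons enter liver mRNA. *Lpin1* itself ranged from 0.726 to 21.96 RPKM (reads normalised for gene length and library size) over the 6 wild type libraries, where 1 fasted library stood far above the others, and from 0.00573 to 0.0597 RPKM in *Lpin1*-/- liver. All 5 hepatocyte markers were detected in each group, with a sum between 32347 and 72667 RPKM.

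A skipped exon is spliced out together with the introns on both sides. Many exons that adult tissues skip carry a stop codon in the reading frame of the transcript. Such poison exons send the mRNA to nonsense-mediated decay, a surveillance pathway that degrades transcripts with an early stop codon, and genes of splicing factors are known for them. Lipin 1 is a phosphatidate phosphatase of triacylglycerol synthesis and also a transcriptional coregulator in liver.

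The exons shown here are those of the 12 members named for the comparison of fasted *Lpin1*-/- with fasted wild type liver, 6 higher and 6 lower, that have a coding upstream exon and a sequence in GENCODE M21 transcripts (GRCm38). Each is printed 5′ to 3′ with the member exon in capitals and 15 bases of the neighbour exons in lower case, to show where the stop codons lie. The 4 that gained inclusion carry one in frame, and *Plekha6*, which lost inclusion, has none.
Rsrp1: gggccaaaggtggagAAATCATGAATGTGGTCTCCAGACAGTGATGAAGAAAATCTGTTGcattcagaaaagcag
Lrif1: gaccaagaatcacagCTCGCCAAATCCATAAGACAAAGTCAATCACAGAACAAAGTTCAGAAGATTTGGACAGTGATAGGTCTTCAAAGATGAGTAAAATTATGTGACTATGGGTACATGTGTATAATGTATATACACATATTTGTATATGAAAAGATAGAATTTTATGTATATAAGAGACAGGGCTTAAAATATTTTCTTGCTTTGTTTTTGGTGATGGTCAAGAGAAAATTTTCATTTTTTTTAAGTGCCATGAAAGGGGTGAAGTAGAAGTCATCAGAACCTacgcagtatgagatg
Mtf2: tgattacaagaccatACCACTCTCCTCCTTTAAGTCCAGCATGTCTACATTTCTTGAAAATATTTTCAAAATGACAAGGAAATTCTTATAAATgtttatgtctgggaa
Chka: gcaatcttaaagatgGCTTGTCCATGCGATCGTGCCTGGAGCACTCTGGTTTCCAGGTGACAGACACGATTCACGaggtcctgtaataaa
Plekha6: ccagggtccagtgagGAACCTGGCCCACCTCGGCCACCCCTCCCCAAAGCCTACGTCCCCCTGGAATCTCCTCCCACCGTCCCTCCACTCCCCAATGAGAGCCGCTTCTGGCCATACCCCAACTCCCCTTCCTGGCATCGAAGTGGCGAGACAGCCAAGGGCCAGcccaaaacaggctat
The *Rsrp1* exon (chr4:134925777-134925821, plus strand, 45 bases) has TGA in frame from base 7 of the exon. In *Lrif1* (chr3:106733337-106733606, plus strand, 270 bases) TGA starts at base 76, and in *Chka* (chr19:3871003-3871062, plus strand, 60 bases) TGA starts at base 43. In *Mtf2* (chr5:108099654-108099731, plus strand, 78 bases) TAA starts at base 74. GENCODE lists the *Lrif1*, *Mtf2*, and *Chka* exons in transcripts marked for nonsense-mediated decay, and the *Rsrp1* exon in a transcript without that mark that is not protein-coding either. The *Plekha6* exon (chr1:133286247-133286396, plus strand, 150 bases) is in a protein-coding transcript. For *Mtf2*, *Chka*, and *Plekha6* the annotated coding transcripts give 2 frames at the end of the upstream exon, and the more frequent one was used.

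Inclusion appeared mainly in fasted *Lpin1*-/- liver. Inclusion is the share of the included form in the sum of the included and the skipped form of an event. It comes from inclusion counts (reads on the exon or its junctions) and skipping counts (reads on the junction that joins its neighbours), each divided by the length of its form. The number of members at an inclusion of 0.1 or more was 134, 215, and 155 in the fasted wild type libraries and 745, 661, and 594 in the fasted *Lpin1*-/- libraries. It was 164, 139, and 78 in the refed wild type libraries, whose mean the rule had used, and 259, 227, and 259 in the refed *Lpin1*-/- libraries. The 3 fasted *Lpin1*-/- libraries were thus above the other 9, by a margin larger than their own spread. At 0.2 or more, the fasted wild type libraries held 11, 31, and 13 members and the fasted *Lpin1*-/- libraries 324, 224, and 185. The refed *Lpin1*-/- libraries held 41, 37, and 39 at that level. At 0.5 or more there were 54, 32, and 22 members in fasted *Lpin1*-/- liver, and no other library had more than 2. The median member had 151 to 212 counts in a fasted *Lpin1*-/- library and 194 to 265 in a fasted wild type library. Few counts spread inclusion more widely. Among the 5863 members with at least 20 counts in every library, 389 more had a mean of 0.1 or more in fasted *Lpin1*-/- than in fasted wild type liver. Among all 6613 members the number was 524.

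**Figure D1:**
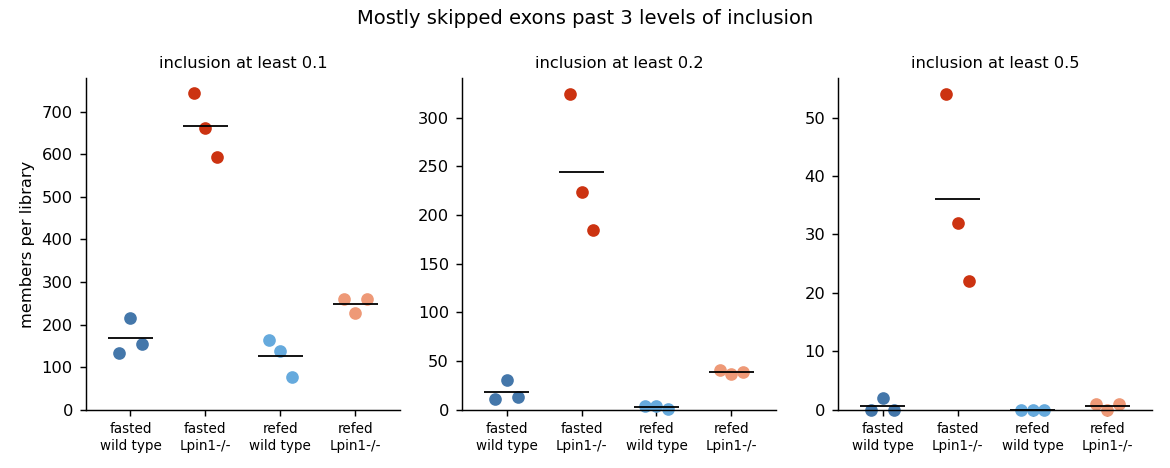
Number of members, of 6613, in each library with inclusion of at least 0.1, 0.2, or 0.5, by group. Points are libraries, lines are group means, and the panels have separate axes from 0. The fasted Lpin1-/- libraries hold 594 to 745 members at 0.1 or more and are above the other 9 libraries at each level.

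Asked where inclusion reached 0.2 in all 3 libraries of a group, 101 members did so in fasted *Lpin1*-/- liver alone, 7 in fasted and refed *Lpin1*-/- liver, 4 in refed *Lpin1*-/- liver alone, and 2 in fasted wild type and fasted *Lpin1*-/- liver. The other 6499 reached it in none of the 3 groups that the rule did not use. The 101 members lay in 84 genes. Their mean inclusion had a median of 0.0541 in fasted wild type, 0.378 in fasted *Lpin1*-/-, and 0.0786 in refed *Lpin1*-/- liver. Over these 101 the median inclusion count ranged from 6 to 9 in fasted wild type liver and from 47 to 52 in fasted *Lpin1*-/- liver, while the median skipping count ranged from 42 to 91 and from 29 to 34. A higher ratio of inclusion to skipping counts was fixed by how the 101 were picked. Median skipping counts were also lower in fasted *Lpin1*-/- liver among members not called higher, at 145.5 to 201 against 189.5 to 257 in fasted wild type liver, where median inclusion counts were 4 to 5 in both groups.

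Next, fasted *Lpin1*-/- was compared with fasted wild type liver, a difference that does not use the libraries of the rule, although the spread was estimated over all 12 libraries. Higher inclusion was called for 1137 members (17.2%) in 795 genes and lower inclusion for 81 (1.22%), at an adjusted p under 0.05 in limma on the log2 ratio of inclusion to skipping. Over all 28447 events, 5.11% were called higher and 11.3% lower. Membership may still depend on the fasted *Lpin1*-/- libraries, since exons outside the annotation may be listed because that group includes them. Of the 1137 called higher, 205 were annotated. Members start from inclusion near 0 and have more room to rise than to fall, while most other exons start near 1. Among the 17808 joined exons of the same lengths with inclusion of 0.9 or more in refed wild type liver, 74 (0.416%) were called higher and 2837 (15.9%) lower. Calls in both sets thus ran mostly away from the level each set started from. Within the members, the share called higher was 18.9% of the 3741 below 0.01, 15.2% of the 2165 from 0.01 to 0.05, and 14.4% of the 707 from 0.05 to 0.1.

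Most of the called gains were small. The difference in mean inclusion of the 1137 had a median of 0.0450 with quartiles of 0.0161 and 0.115, and 767 of them stayed below a mean of 0.1 in fasted *Lpin1*-/- liver. With a difference of at least 0.1 as well, 332 were higher and 2 lower. Fitted to the 6 fasted libraries alone, 962 were higher and 46 lower. The count higher dropped to 737 when the fasted wild type library listed last was left out. The 81 called lower fell by a median of 0.0149, and they numbered 40, 49, and 52 without each fasted wild type library and 53 without the fasted *Lpin1*-/- library listed first. Some called exons are variants of one another, and 211 of the 1137 share a start and 228 share an end with another of them.

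**Figure D2:**
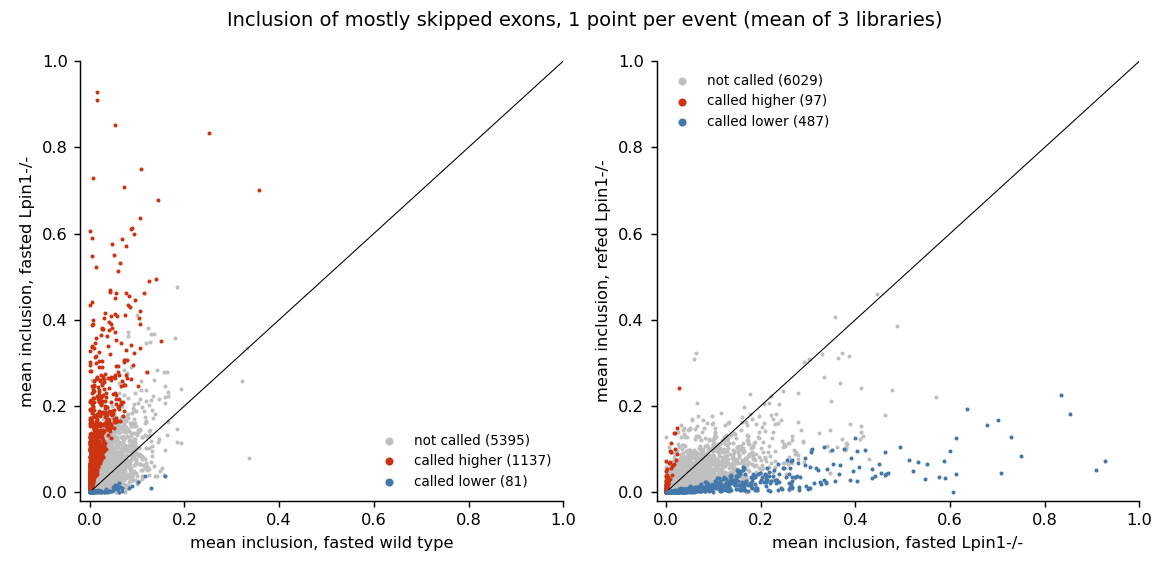
Mean inclusion of each member (mean of 3 libraries, 1 point per event), left in fasted Lpin1-/- (vertical) against fasted wild type liver (horizontal), right in refed (vertical) against fasted Lpin1-/- liver (horizontal). Red points were called higher (1137 left, 97 right), blue points lower (81 left, 487 right), and the line marks equal inclusion. Red points spread up the left panel and blue points run out along the horizontal axis of the right one.

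Exons that went from a minor form to the major form led the comparison. The named members are those with the largest difference among called members whose 3 libraries did not overlap, with at least 20 mean inclusion counts in the higher group and 1 event per gene. In *Rsrp1*, which encodes an arginine- and serine-rich protein, inclusion of the exon printed above was 0.0138, 0.0238, and 0.00945 in fasted wild type and 0.873, 0.926, and 0.985 in fasted *Lpin1*-/- liver (limma log2 ratio 10.04 ± 1.04 SE, adjusted p = 8.37e-05). In refed livers it was 0.0016 to 0.0489 in wild type and 0.0297 to 0.146 in *Lpin1*-/-. The included form thus far outweighed the skipped form in the fasted *Lpin1*-/- group and was a small part elsewhere. Mean inclusion counts were 19.3 in fasted wild type and 228 in fasted *Lpin1*-/- liver, and mean skipping counts 771 and 11.7. Transcripts that neither form covers do not enter this share. *Rsrp1* mRNA itself was 84.9 ± 29.4 RPKM (SD, n = 3) in fasted wild type and 46.6 ± 16.2 in fasted *Lpin1*-/- liver (limma adjusted p = 0.0448). A 69-base exon of the predicted gene *Gm42936* (chr5:36611878-36611946, minus strand, inside an annotated intron) had inclusion of 0.0136, 0, and 0.035 in fasted wild type and 0.888, 0.839, and 1 in fasted *Lpin1*-/- liver, on 33 mean inclusion counts (limma adjusted p = 7.12e-05).

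*Lrif1* encodes a nuclear receptor-interacting factor of heterochromatin. Its exon was at 0.0499, 0.0105, and 0.101 in fasted wild type and at 0.92, 0.711, and 0.927 in fasted *Lpin1*-/- liver (limma adjusted p = 0.000312). *Mtf2* encodes a partner of the Polycomb repressive complex that methylates histone H3. Its exon had 1 inclusion count over the 3 fasted wild type libraries and an inclusion of 0.82, 0.545, and 0.823 in fasted *Lpin1*-/- liver (limma adjusted p = 0.000167). A difference in RPKM was not detected for either gene, at a log2 fold change of -0.03 ± 0.18 SE for *Lrif1* and -0.05 ± 0.20 for *Mtf2* (limma adjusted p = 0.936 and 0.878). *Chka* encodes choline kinase alpha, which starts phosphatidylcholine synthesis. Its exon was at 0.0372, 0.216, and 0.073 in fasted wild type and at 0.704, 0.8, and 0.742 in fasted *Lpin1*-/- liver (limma adjusted p = 0.000295). *Chka* mRNA rose with it, from 11.8 ± 3.77 to 26.9 ± 8.15 RPKM (SD, n = 3; limma adjusted p = 0.0171). *Rai1* encodes a transcriptional regulator. A 61-base exon inside an annotated *Rai1* intron (chr11:60197291-60197351, plus strand) was at 0.102, 0.116, and 0 in fasted wild type and at 0.709, 0.683, and 0.732 in fasted *Lpin1*-/- liver (limma adjusted p = 0.00124).

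**Figure D3:**
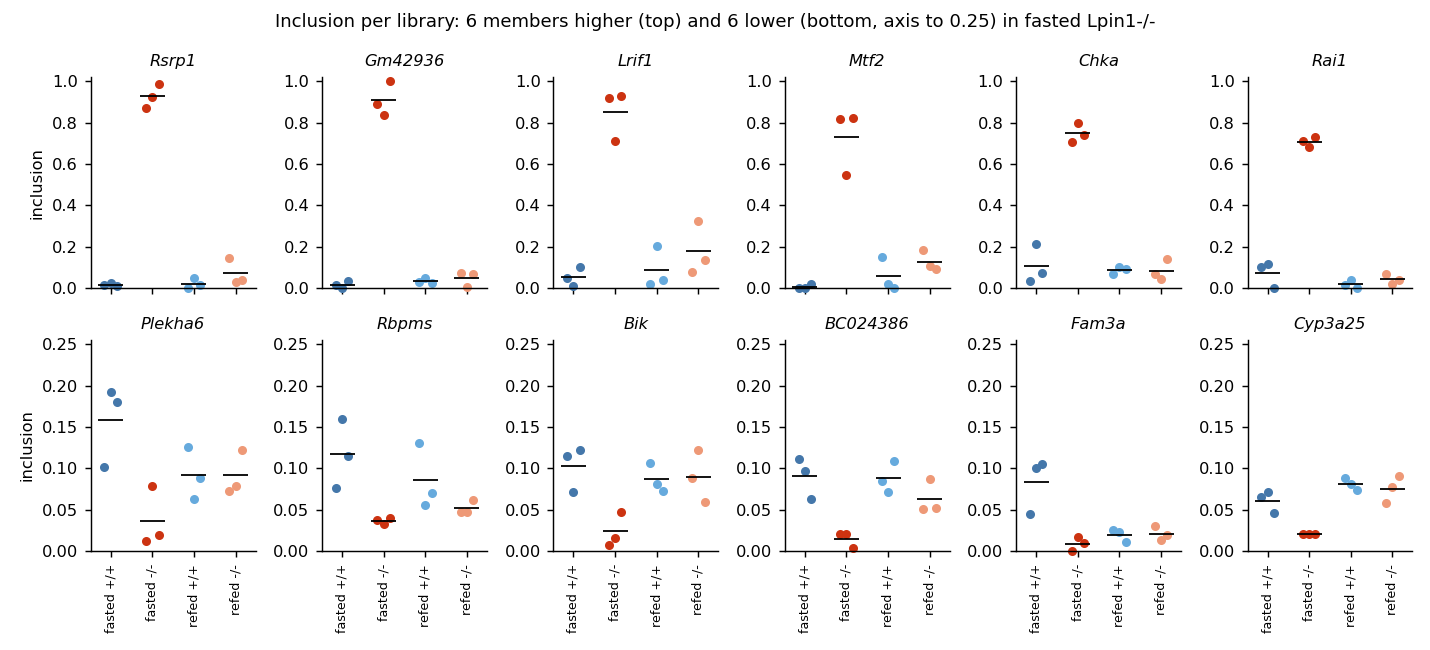
Inclusion in each library for the 6 named members higher in fasted Lpin1-/- liver (top row, axis to 1) and the 6 named members lower (bottom row, axis to 0.25), where +/+ is wild type and -/- is Lpin1-/-. Points are libraries and lines are group means. In the top row the fasted Lpin1-/- points are at 0.545 or above and apart from the 9 others, while the bottom row moves within 0.192.

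The members with lower inclusion changed over a much narrower range. In *Plekha6*, a gene of a pleckstrin homology domain protein, inclusion was 0.101, 0.192, and 0.181 in fasted wild type and 0.0119, 0.0784, and 0.0197 in fasted *Lpin1*-/- liver (limma adjusted p = 0.0157). *Rbpms*, an RNA-binding protein gene, fell from a mean of 0.117 ± 0.0422 to 0.0365 ± 0.00365 (SD, n = 3; limma adjusted p = 0.0341). The proapoptotic gene *Bik* went from 0.103 to 0.0238, *BC024386* from 0.0902 to 0.0146, *Fam3a* from 0.0833 to 0.00878, and the cytochrome P450 gene *Cyp3a25* from 0.0609 to 0.0207 in mean inclusion. All 6 passed the test, and their 3 against 3 libraries did not overlap, as the rule of naming asks. *Cyp3a25* belongs to a family of near-identical genes that can share reads, so its value is less certain.

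The members lay mostly outside the annotated transcripts. GENCODE M21 holds 1395 of them (21.1%) as an exon with the same ends, against 72.3% of the 20645 other joined exons of the same lengths. Another 4011 (60.7%) lie inside an annotated intron with no sequence in the transcripts, against 1.93% of the others. Of the 1137 called higher in fasted *Lpin1*-/- liver, 205 were annotated and 716 (63.0%) lay inside an intron. Among the 101 members that reached 0.2 in fasted *Lpin1*-/- liver alone, 37.6% were annotated and 14.9% were in a transcript marked for nonsense-mediated decay, compared with 21.1% and 6.49% of all members. Median length was 98 bases for members called higher, 103 for other members, and 117 for other joined exons, and the share with a length that is a multiple of 3 was 38.0%, 37.4%, and 40.0%.

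Where the frame could be read, the members mostly held a stop codon. The frame was taken from coding transcripts that end a coding exon at the upstream splice site, and both frame and exon sequence were known for 1839 members. Of these, 1233 (67.0%) had a stop codon in frame inside the exon, 248 (13.5%) shifted the frame without one, and 358 (19.5%) kept the frame. Of 15846 other joined exons with known frame, 2617 (16.5%) had such a stop codon. The share was 74.4% among 317 members called higher and 65.5% among 1522 other members. With only exons whose annotation gives 1 frame, the shares were 76.4%, 68.6%, and 16.0%. These are shares of the exons with both frame and sequence known, which are 317 of the 1137 members called higher and 1522 of the 5476 other members, and they say nothing of the rest. The other joined exons are an unlike yardstick, since 67.5% of them were in a protein-coding transcript, against 10.3% of all members. How often non-coding sequence of these lengths holds a stop codon in frame was not measured, so the shares do not show an excess of poison exons.

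**Figure D4:**
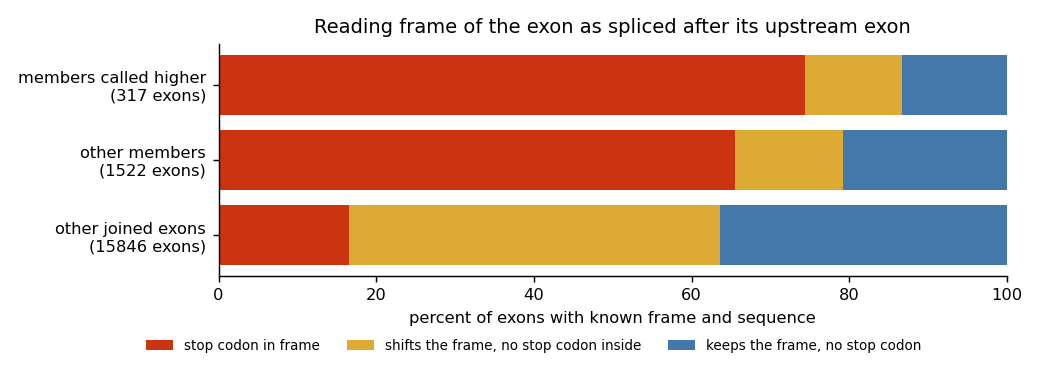
Percent of exons with an in-frame stop codon (red), a frame shift without a stop codon inside (yellow), or neither (blue), for 317 members called higher in fasted Lpin1-/- liver, 1522 other members, and 15846 other joined exons of 28 to 300 bases. The stop codon class takes 74.4%, 65.5%, and 16.5%.

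Short motifs were counted on both strands in the exon sequences, each as a plain run of letters. GGTGG was in 8.47% of members called higher, 9.75% of the other members, and 16.1% of other joined exons, and on the opposite strand in 15.1%, 13.9%, and 16.1%. TCTCT was in 17.2%, 16.9%, and 13.9%, and on the opposite strand in 18.3%, 20.8%, and 20.1%. TTTTT was in 8.99%, 7.67%, and 7.61%, and on the opposite strand in 12.96%, 8.35%, and 12.7%. The widest gap between called and other members was thus in the opposite strand of the last one. TGCATG was in 1.85%, 3.18%, and 2.90%, and on the opposite strand in 1.59%, 3.599%, and 3.94%. ACTAAC was in 1.06%, 1.20%, and 0.866%, and on the opposite strand in 1.06%, 0.730%, and 0.749%. Median GC content was 48.1%, 50.0%, and 50.6%. None of these shares was tested, and a match is not a binding site.

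The members were also grouped by what their genes do. The list of other splicing and RNA-binding factors held 81 members in 45 genes, of which 40 (49.4%) in 24 genes rose in fasted *Lpin1*-/- liver and 3 fell, and the median log2 ratio of the list was 2.14 against 0.80 for all members and -0.50 for all events. The list was written with earlier results of these data known, so its count is a description. In 21 of the 40 exons a stop codon was found in frame. Of the others, only the *Ilf2* and *Mbnl2* exons had frame and sequence known, and the rest could not be read. The 4 genes with the largest gains after *Rsrp1* were chosen after their values were seen. *Snrnp70*, the U1 snRNP protein that marks 5′ splice sites, had a 60-base exon at 0.0508 ± 0.015 in fasted wild type and 0.551 ± 0.138 in fasted *Lpin1*-/- liver (SD, n = 3; limma adjusted p = 0.000164). In *Rsrc2*, a gene of another arginine- and serine-rich protein, a 75-base exon rose from 0.0642 to 0.532 (limma adjusted p = 0.000305). In *Tial1*, which encodes the RNA-binding protein TIAR, a 69-base exon rose from 0.0586 to 0.512 (limma adjusted p = 0.00198). In *Puf60*, a splicing factor that helps define 3′ splice sites, a 120-base exon rose from 0.0442 to 0.390 (limma adjusted p = 0.000573). All 4 exons hold a stop codon in frame and are in transcripts marked for nonsense-mediated decay, and in refed *Lpin1*-/- liver they were at 0.0662, 0.0696, 0.0750, and 0.157.

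The member of that list with the most inclusion counts went the other way. It is a 271-base exon of *Rbm3* (chrX:8144175-8144445, minus strand), which encodes a cold-inducible RNA-binding protein, at 0.0322, 0.0114, and 0.00912 in fasted wild type and 0.00288, 0.00377, and 0.00129 in fasted *Lpin1*-/- liver (limma adjusted p = 0.0143). SR proteins, which promote splicing from exonic sites, had 8 members in 4 genes. In limma, 0 were called higher, with 1 at an unadjusted p under 0.05. The SR member with the most inclusion counts, a 59-base exon of *Srsf6*, was at 0.103, 0.134, and 0.0899 in fasted wild type and 0.332, 0.2, and 0.18 in fasted *Lpin1*-/- liver, without overlap, but missed the threshold (limma adjusted p = 0.109). Among hnRNPs, which often repress exons, 4 of 22 members (18.2%) rose, near the 17.2% of all members. They were in *Hnrnpf*, *Hnrnpr*, *Ptbp1*, and *Ptbp2*, at means of 0.0094, 0.0141, 0.00986, and 0.0788 in fasted *Lpin1*-/- liver. Mean inclusion counts there were 8, 1.67, 6.67, and 28.3. The most counted hnRNP member, a 36-base exon of *Hnrnpa2b1*, was at 0.0801 ± 0.0139 in fasted wild type and 0.0983 ± 0.0182 in fasted *Lpin1*-/- liver (SD, n = 3; limma adjusted p = 0.679).

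In metabolic lists the share that rose was near the 17.2% of all members. Of 89 members in fatty acid oxidation genes, 15 (16.9%) rose, and of 47 in lipid and phospholipid synthesis, 8 (17.0%) rose, among them *Chka*, the most counted one there. In MAP kinase signalling 9 of 45 rose, and *Hras* was at 0.0466 and 0.0285 (limma adjusted p = 0.302). In the circadian clock list 1 of 12 rose, in *Nr1d2*, and the output factor *Tef* was at 0.0486 and 0.0526 (limma adjusted p = 0.84). Plasma protein genes had 18 of 154 higher (11.7%) and 4 lower, and *Kng1*, a kininogen, was at 0.0404 and 0.0308 on the largest counts of any list (limma adjusted p = 0.587). Liver P450 genes had 12 of 69 higher (17.4%) and 2 lower, with *Cyp3a25* the most counted. All these lists were written by hand with earlier results known.

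**Figure D5:**
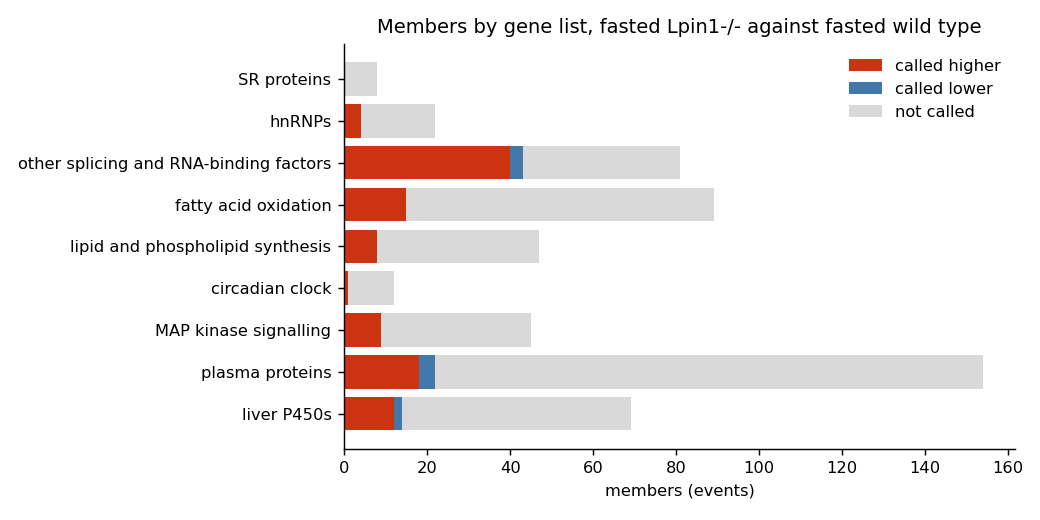
Members in each gene list by their call in fasted Lpin1-/- against fasted wild type liver (horizontal axis: number of members). Red marks higher, blue lower, and grey not called. The list of other splicing and RNA-binding factors has 40 of 81 members called higher, the plasma proteins 18 of 154.

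Most members called between refed and fasted *Lpin1*-/- liver were lower in inclusion after refeeding. Refed against fasted *Lpin1*-/- liver, which shares the fasted *Lpin1*-/- libraries with the comparison above, had 487 members called lower (7.36%) and 97 higher (1.47%), where 2.5% of all events were called lower and 5.31% higher. The difference of the 487 had a median of -0.0821. This count depended on single libraries. It was 226 without the fasted *Lpin1*-/- library listed first and 248 without the one listed next, and it was 229 and 317 without the refed *Lpin1*-/- libraries listed in the middle and last. The 97 called higher became 63, 42, and 49 without each refed *Lpin1*-/- library. *Gm42936*, *Rsrp1*, *Lrif1*, *Chka*, *Rai1*, and *Nuak2* led the members that fell. *Nuak2*, a kinase of the AMPK family, has a 96-base exon with a stop codon in frame (chr1:132317422-132317517, plus strand), which was at 0.684, 0.955, and 0.861 in fasted and 0.242, 0.244, and 0.19 in refed *Lpin1*-/- liver (limma adjusted p = 0.00908). In wild type liver it was at 0.128, 0.281, and 0.344 after fasting and 0.00735, 0.13, and 0.0594 after refeeding. *Mtf2* fell from 0.729 to 0.128 (limma adjusted p = 0.0112).

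The 6 members named for a rise on refeeding of *Lpin1*-/- mice started from few inclusion counts. *Josd2*, a deubiquitinase gene, was at 0.0631, 0.0194, and 0 in fasted and 0.304, 0.245, and 0.175 in refed *Lpin1*-/- liver (limma adjusted p = 0.0149), compared with 0.0712 and 0.0844 as means of fasted and refed wild type liver. The others named were *Mylk* (mean of 0.0243 fasted and 0.149 refed), *Zswim8* (0.0198 and 0.136), *Nutf2* (0.0111 and 0.114), *Zcchc6* (0.00994 and 0.0929), and *Ranbp10* (0.00995 and 0.0926). The fasted *Lpin1*-/- means of these 5 rest on 1.67 to 3.67 inclusion counts per library. In the same order, their means in refed wild type liver were 0.0853, 0.0962, 0.0969, 0.0495, and 0.0970. In fasted wild type liver the means were 0.0466, 0.0494, 0.0636, 0.0575, and 0.0689, each above the fasted *Lpin1*-/- mean.

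Some members stayed included in *Lpin1*-/- liver after refeeding. Refed *Lpin1*-/- against refed wild type liver is given as values, since the rule chose members on low refed wild type inclusion. Libraries did not overlap for 972 members that were higher and 388 that were lower, where 5.64% and 11.2% of all events were so. The largest differences were in *Aldh3a2*, *Ivns1abp*, *Cyp4a32*, and *Tcf25*. *Aldh3a2*, a fatty aldehyde dehydrogenase, had a 64-base exon with a stop codon in frame (chr11:61248419-61248482, minus strand) at 0.477, 0.236, and 0.622 in fasted and 0.595, 0.279, and 0.507 in refed *Lpin1*-/- liver, and at 0.0345 to 0.147 in all 6 wild type libraries. Refed against fasted *Lpin1*-/- liver had a log2 ratio of 0.12 ± 0.72 SE (limma adjusted p = 0.949), so a difference was not detected, and its SE is wide. The exon had 21.7 and 18 mean inclusion counts in fasted and refed wild type liver and 17 and 21 in fasted and refed *Lpin1*-/- liver, while mean skipping counts were 99.3 and 103 against 12.7 and 12. Its higher share in *Lpin1*-/- liver thus came with fewer skipping counts and no more inclusion counts. *Aldh3a2* mRNA was 82.5 ± 31.3 RPKM in fasted wild type and 16.5 ± 2.77 in fasted *Lpin1*-/- liver (SD, n = 3; limma adjusted p = 0.000858).

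In *Cyp4a32*, a fatty acid omega-hydroxylase gene, a 45-base exon inside an intron was at 0.436, 0.433, and 0.293 in fasted and 0.256, 0.421, and 0.272 in refed *Lpin1*-/- liver. No wild type library was above 0.0185. The Cyp4a genes are near-identical copies, so reads may be split among them. *Ivns1abp* was at 0.407 ± 0.0365 in refed *Lpin1*-/- and 0.0761 ± 0.0659 in refed wild type liver, and *Tcf25* at 0.386 ± 0.0971 and 0.0826 ± 0.106 (SD, n = 3). All 4 are among the 7 members at 0.2 or more in each of the 6 *Lpin1*-/- libraries. The other 3 were *Acnat2*, *Serpina1a*, and *Zfand6*, with refed *Lpin1*-/- means of 0.230, 0.308, and 0.267. For *Acnat2* and *Ivns1abp*, a difference between the fasted groups was not detected (limma adjusted p = 0.247 and 0.157). Mean inclusion of *Ivns1abp* was 0.180 in fasted wild type and 0.357 in fasted *Lpin1*-/- liver. *Serpina1a* and *Acnat2* also have near-identical copies. The 4 members that reached 0.2 in refed *Lpin1*-/- liver alone were 2 overlapping exons each of *4732465J04Rik* and *Rab7*, and in *Rab7* 2 of the 3 fasted *Lpin1*-/- libraries were also above 0.4.

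Feeding of wild type mice is likewise given as values. Libraries did not overlap for 514 members that were higher and 219 that were lower after refeeding, where 4.47% and 2.97% of all events were so. The largest differences were in *Rdh13*, *Chd1*, *Csrp3*, and *Eif4g3*, each higher after fasting, a direction that the rule sets for large differences because refed wild type inclusion had to be below 0.1. *Chd1*, a chromatin remodeler, had a 91-base exon at 0.294, 0.352, and 0.348 in fasted and 0.049, 0.127, and 0.0799 in refed wild type liver. In *Lpin1*-/- liver it was at 0.338, 0.276, and 0.388 after fasting and 0.0796, 0.102, and 0.133 after refeeding, so that both genotypes had the same order. *Rdh13*, a retinol dehydrogenase, was at 0.356 ± 0.113 in fasted wild type, 0.701 ± 0.0722 in fasted *Lpin1*-/-, and 0.0877 ± 0.0441 in refed wild type liver (SD, n = 3). *Chd1* and *Rdh13* were the only members at 0.2 or more in all 6 fasted libraries. *Csrp3* was at 0.184 in fasted and 0.0383 in refed wild type liver, and *Eif4g3*, a translation initiation factor, at 0.193 and 0.0568.

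The mRNA level of the genes that hold the members was also compared. Of 3280 host genes tested in RPKM, 716 were called in fasted *Lpin1*-/- against fasted wild type liver, 173 higher and 543 lower, where 18.8% of all 11507 genes were called, 5.63% higher and 13.2% lower. The median log2 fold change was -0.22 for host genes and -0.14 for all genes. With fasted wild type replicate 3 left out 333 host genes were called, and with fasted *Lpin1*-/- replicate 1 left out 471. Of 785 tested genes with a member called higher, 140 were lower and 49 higher, and of 2495 with no such member, 403 were lower and 124 higher. The median was -0.21 with such a member and -0.22 without one. In bulk tissue, fewer cells of a type and less RNA per cell cannot be told apart.

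Markers of other liver cells were also compared between the fasted groups, without a test. Of the sums given here, only those of stellate cell markers did not overlap between these groups. All 6 Kupffer cell markers, 3 of 5 stellate cell markers, 2 of 4 endothelial, 4 of 4 cholangiocyte, and 2 of 3 lymphocyte markers had a higher mean in fasted *Lpin1*-/- liver. The summed RPKM of 6 Kupffer cell markers was 151 to 308 in fasted wild type and 297 to 795 in fasted *Lpin1*-/- liver, and that of 5 stellate cell markers 64.0 to 152 and 191 to 277. For 4 cholangiocyte markers it was 31.6 to 44.9 and 24.6 to 449, for 4 endothelial markers 18.4 to 43.1 and 33.7 to 44.5, and for 3 lymphocyte markers 0.695 to 2.30 and 1.45 to 3.31. Hepatocyte markers summed to 54991 to 70386 and 58323 to 72667, and 2 of 5 had a lower mean in fasted *Lpin1*-/- liver. In each group, 0 markers were at 0 throughout, and the part of these cells in the exon inclusion was not tested. Inclusion counts also hold reads on the exon body, so unspliced RNA adds to them, and its part was not tested either.

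The limit of 0.1 has no gap in the data. Just inside it were *Tbc1d23*, *Parp16*, and *Mylk*, with refed wild type means of 0.09976, 0.09996, and 0.09998, and just outside it *Mfsd4b3*, *D3Ertd751e*, and *Bche*, with 0.10009, 0.10017, and 0.10019. *Parp16* had a mean of 0.409 in fasted *Lpin1*-/- liver, and the other 5 had 0.0159 to 0.124.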

How the data were processed

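RNA was sequenced from 12 mouse livers with a stranded kit and 69-base paired reads. The authors counted reads on each skipped exon event with rMATS, and the deposited tables hold, for every library, the counts of the included and the skipped form with the length of each. They also aligned reads to GRCm38 with HISAT2 (2.0.5), counted them with HTSeq (0.6.0), and deposited RPKM per gene. Columns with the authors' own p-values, FDR, and inclusion differences were not used, nor were the tables of selected events, apart from the one on wild type feeding, which served to check groups. In the genotype tables the libraries of a group are listed without replicate numbers. Groups of the lists were checked against that table, where all 1524 shared fasted and all 1719 shared refed events had equal counts.

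Counts are a comma-separated list in each cell, so limma (3.58.1, R 4.3.3) with a trend in the variance was fitted to the log2 ratio of length-normalized counts, with 0.5 added to each count, over all 28447 events and 12 libraries. Adjusted p-values follow Benjamini and Hochberg, taken over every event tested, with a threshold of 0.05. The deposited RPKM values were fitted on the scale log2(RPKM + 1). Genes needed a mean of 0.5 or more, which left 11507, and fold changes of low genes are understated on this scale. Inclusion counts over all joined events summed to 90.1 to 136 M per library and skipping counts to 9.98 to 14.9 M. The counts of an event, given beside some of the results, and the spread between mice limit precision. Of the 1137 members called higher in fasted *Lpin1*-/- liver, 614 had at least 20 mean inclusion counts there. Their median inclusion count over all 1137 was 3, 2, and 1 in the fasted wild type libraries. Both limma fits were tested on simulated data. For the events, changes were put only where the rarer form averaged at least 20 counts, so gains of members with few inclusion counts were not covered. No contrast with refed wild type was tested, since the rule used it.

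Exon matches, frames, and exon sequences came from GENCODE M21 annotation and transcripts (GRCm38). Sequence of introns was not analysed here, so splice site bases, pyrimidine tracts, repeats, and intronic motifs are not given. Named members are, for each tested comparison and direction, the 6 with the largest difference in mean inclusion among called members without overlap of libraries and at least 20 mean inclusion counts in the higher group, 1 per gene, for the untested comparisons the 4 largest, in each gene list the member with the most inclusion counts, and the 3 events on each side of the limit. The member so chosen in the fatty acid oxidation list is not reported here. Other exceptions are named in the text. The members, lists, and tests were chosen with earlier results of these data known. Other steps used pandas 2.3.3 and numpy 2.4.6 in Python 3.11.15, with plots by matplotlib 3.10.9.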

Additional observations from a re-analysis of the deposited data

How the results depend on the processing

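Of 50 alternatives that leave out no library, 40 gave a value within 1.5 times the reported one and 10 did not. A count of calls cannot turn negative, so only the differences in number of members could have changed direction, and 0 of those did. When calls also needed inclusion to differ by 0.1 or more, members called higher and lower in fasted *Lpin1*-/- liver numbered 332 and 2, and members called higher and lower on refeeding 5 and 213. In fits to only the 6 libraries compared, 46 members were lower in fasted *Lpin1*-/- liver, and on refeeding 45 were higher and 304 lower. Precision weights gave 929 lower on refeeding. At a level of 0.2, fasted *Lpin1*-/- liver had 212 more members than fasted wild type, and refed *Lpin1*-/- had a difference of -190 from fasted *Lpin1*-/- liver, against 524 and -440 at 0.1. Leaving out 1 library in turn gave 737 to 1120 higher and 40 to 93 lower in fasted *Lpin1*-/- liver, 42 to 121 higher and 226 to 510 lower on refeeding, 333 to 749 host genes, and differences of 479 to 564 and -480 to -395 members. The cause of these changes was not tested, except that fits with fewer libraries have fewer degrees of freedom. Members chosen on refed *Lpin1*-/- in place of refed wild type inclusion, an alternative added after seeing the data, gave 1079 higher and 90 lower.

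No paired analysis was possible for the splicing counts because their tables carry no replicate numbers. For RPKM, the replicate number as a replicate block gave 597 host genes called, against 716 without it. Deviations of same-numbered libraries correlated between -0.47 and 0.74, above 0.1 in 8 of 18 pairs. For fasted wild type with fasted *Lpin1*-/- liver, the groups compared, they were -0.47, -0.37, and -0.23, so the numbers were not taken as pairs there. Refed *Lpin1*-/- correlated above 0.1 with the same number of fasted and of refed wild type liver in every pair, which is a hint from the data and not from the design. With at least 20 counts in every library, 1065 members were higher and 76 lower in fasted *Lpin1*-/- liver.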
